A study of Mus musculus with 8 samples.

Results

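The genes described here encode the working parts of a chemical synapse: synaptic vesicle and release proteins, active-zone proteins, neurexins and neuroligins, postsynaptic scaffolds, ionotropic glutamate receptor subunits, vesicular glutamate transporters, and the enzymes and transporter of GABA neurons. They were chosen by symbol from a list of 41, of which 40 were among the 14954 genes tested. For the exception, the neuroligin Nlgn1, no expression value is given here. RNA was measured by RNA-seq of poly(A) libraries in mouse cortical-type progenitor cultures. In 4 Bcl6-induced cultures, 1 µg/ml doxycycline had been given for 24 h before collection at differentiation day 12, and in 4 control cultures DMSO had been given in its place. Both groups came from the A2lox.Cre Bcl6 embryonic stem cell line, which carries a tetracycline-inducible Bcl6 transgene, and both had received cyclopamine, a hedgehog pathway inhibitor, at 400 ng/ml during differentiation. Every culture therefore carried the transgene, and doxycycline without a transgene was not among the samples, so Bcl6 and doxycycline cannot be told apart. The cultures derive from a stem cell line, not from embryonic cortex, and they are numbered in the labels by differentiation, 1 to 4 per group.

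At a synapse, an action potential opens calcium channels at the active zone, calcium binds synaptotagmin, and the SNARE proteins fuse a docked vesicle with the membrane. The transmitter that the vesicle was loaded with, glutamate through the VGLUT transporters or GABA through VGAT, then reaches receptors that scaffold proteins hold in place across the cleft. Many of these genes are first transcribed when a progenitor leaves the cell cycle, well before synapses exist, and several carry binding sites of REST, a repressor of neuronal genes in non-neuronal cells. Bcl6 is itself a transcriptional repressor, known from germinal centre B cells and, in the cortex, from the step in which progenitors become neurons.

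Promoter windows of 250 bases before to 50 bases after an annotated start were taken from RefSeq (GRCm38.p6), where 30 of the 41 genes had a total of 42 windows. The other 11 genes, Gria1 and Gria3 among them, had no window and were not searched. The 4 windows printed are those of Syp, the only gene of the 40 that rose, of Dlg2, the gene that fell most (the most upstream of its 3 windows), and of Syn1 and Unc13a, whose windows held parts of a REST site. The Dlg2 window lies within the gene, and no window covered the gene's annotated start at 90476672. Capitals mark motif matches, and a window in lower case throughout had none.
Syp chrX:7638330-7638629 (plus strand): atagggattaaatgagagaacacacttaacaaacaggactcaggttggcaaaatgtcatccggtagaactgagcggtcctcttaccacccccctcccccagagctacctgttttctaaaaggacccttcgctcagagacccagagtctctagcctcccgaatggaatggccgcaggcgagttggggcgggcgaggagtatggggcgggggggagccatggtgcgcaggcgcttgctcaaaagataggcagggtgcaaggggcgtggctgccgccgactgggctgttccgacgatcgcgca
Dlg2 chr7:91090536-91090835 (plus strand): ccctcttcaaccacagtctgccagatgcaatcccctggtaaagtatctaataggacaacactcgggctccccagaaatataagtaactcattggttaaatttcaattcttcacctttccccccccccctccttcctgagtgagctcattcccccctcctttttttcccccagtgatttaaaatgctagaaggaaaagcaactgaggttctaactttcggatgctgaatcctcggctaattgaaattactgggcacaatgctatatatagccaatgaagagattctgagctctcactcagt
Syn1 chrX:20920869-20921168 (minus strand): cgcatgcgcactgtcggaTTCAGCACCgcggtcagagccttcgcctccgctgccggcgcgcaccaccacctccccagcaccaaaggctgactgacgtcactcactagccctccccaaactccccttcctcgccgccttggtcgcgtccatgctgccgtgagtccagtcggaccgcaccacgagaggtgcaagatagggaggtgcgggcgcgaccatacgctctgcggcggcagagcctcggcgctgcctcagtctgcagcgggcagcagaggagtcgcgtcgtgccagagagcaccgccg
Unc13a chr8:71671708-71672007 (minus strand): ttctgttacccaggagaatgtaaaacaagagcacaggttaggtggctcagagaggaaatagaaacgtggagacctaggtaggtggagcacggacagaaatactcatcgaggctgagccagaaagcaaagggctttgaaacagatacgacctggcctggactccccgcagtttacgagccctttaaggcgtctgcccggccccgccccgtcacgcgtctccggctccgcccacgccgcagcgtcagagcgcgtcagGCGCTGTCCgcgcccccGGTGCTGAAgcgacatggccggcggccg

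Motifs were searched on both strands as exact letters. TTCCTAGAA, a core of the Bcl6 binding sequence, was in 0.41% of the 32851 promoter windows of the same length and in 0 of the 42 synaptic windows. At so low a share, 42 windows are too few to tell 0 from the share of all windows. Gria1 and Gria3, which fell, were not among the genes searched. TTCAGCACC, the left part of the REST site RE1, was in 0.37% of all windows and in 3 of the 42, those of Nlgn1, Syn1 and Unc13a. GGACAGCGC, from the right part of RE1, was in 0.40% of all windows and in 3 of the 42, those of Gad2, Gria2 and Unc13a. In the Syn1 window the match began at base 19. In the Unc13a window the right part began at base 256 and the left part at base 273, both as reverse complements. These matches describe letters within the windows and not binding.

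The libraries held 15.02, 11.04, 11.28 and 10.33 M reads in Bcl6-induced cultures 1 to 4, against 9.42 to 9.74 M in the controls, as recovered from the deposited scaled values. Bcl6 stood at 324.6 to 426.8 CPM (reads per 1 M of the library) in Bcl6-induced cultures and 6.01 to 7.12 CPM in controls (log2 fold change 5.90 ± 0.10 SE, limma adjusted p = 6.8e-11), and transgene and endogenous reads are not separable. The general progenitor factor Sox2 was at 255.3 ± 15.5 CPM in Bcl6-induced and 257.1 ± 22.3 CPM in control cultures, and Pax6, of dorsal progenitors, at 15.8 ± 5.68 and 20.7 ± 2.47 CPM (SD, n = 4 each). Neither passed the test, but 7 of the 13 progenitor genes tested were lower in Bcl6-induced cultures, Fabp7 at 46.9 ± 40.9 CPM against 179.6 ± 28.1 CPM in controls among them. The pluripotency factor Pou5f1 was at 443.4 ± 42.0 CPM in Bcl6-induced and 538.2 ± 65.7 CPM in control cultures and did not pass the test, whereas Nanog was higher, at 233.5 ± 7.0 and 172.2 ± 13.1 CPM, as were 4 more of the 10 pluripotency genes. Control 1 stood apart from controls 2 to 4 by transcript length: over 14924 genes the Spearman correlation between its deviation from them and transcript length was -0.62. Other libraries had length trends too. Against the mean of all 4 controls, the correlation over 11856 genes was -0.73, 0.18, 0.52 and 0.52 in controls 1 to 4. Against their own group mean, Bcl6-induced libraries 1 to 4 had 0.03, -0.31, 0 and 0.25. Results that rest on control 1 are given with and without it, which leaves the other trends in place.

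In total 1 of the 40 synaptic genes was higher in Bcl6-induced cultures, the vesicle protein gene Syp, and 3 were lower, the scaffold gene Dlg2 and the AMPA receptor subunit genes Gria1 and Gria3. The other 36 did not pass the test, which was limma on log2(value + 1) with Benjamini-Hochberg adjustment over all genes and a threshold of 0.05. Genes called higher made up 2.5% of the 40, against 4.55% of all genes tested, and genes called lower made up 7.5%, against 2.26%. Called genes in either direction were 10% of the 40, against 6.81% of all genes. The log2 fold change was above 0 in 34 of the 40, against 55.4% of all genes, and its median was 0.24, against 0.03 over all genes. Without control 1 it was above 0 in 31 of the 40, with a median of 0.19, against 0.03 over all genes. After removal of the trend on transcript length and GC content it was above 0 in 32, with a median of 0.16, against -0.01. All 4 Bcl6-induced libraries lay above all 4 controls in 7 genes (10.8% of all genes did so) and below them in 4 (6.32% of all genes). In bulk cultures, fewer cells of a type and less RNA per cell cannot be told apart, and this holds for every value given here.

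**Figure D1:**
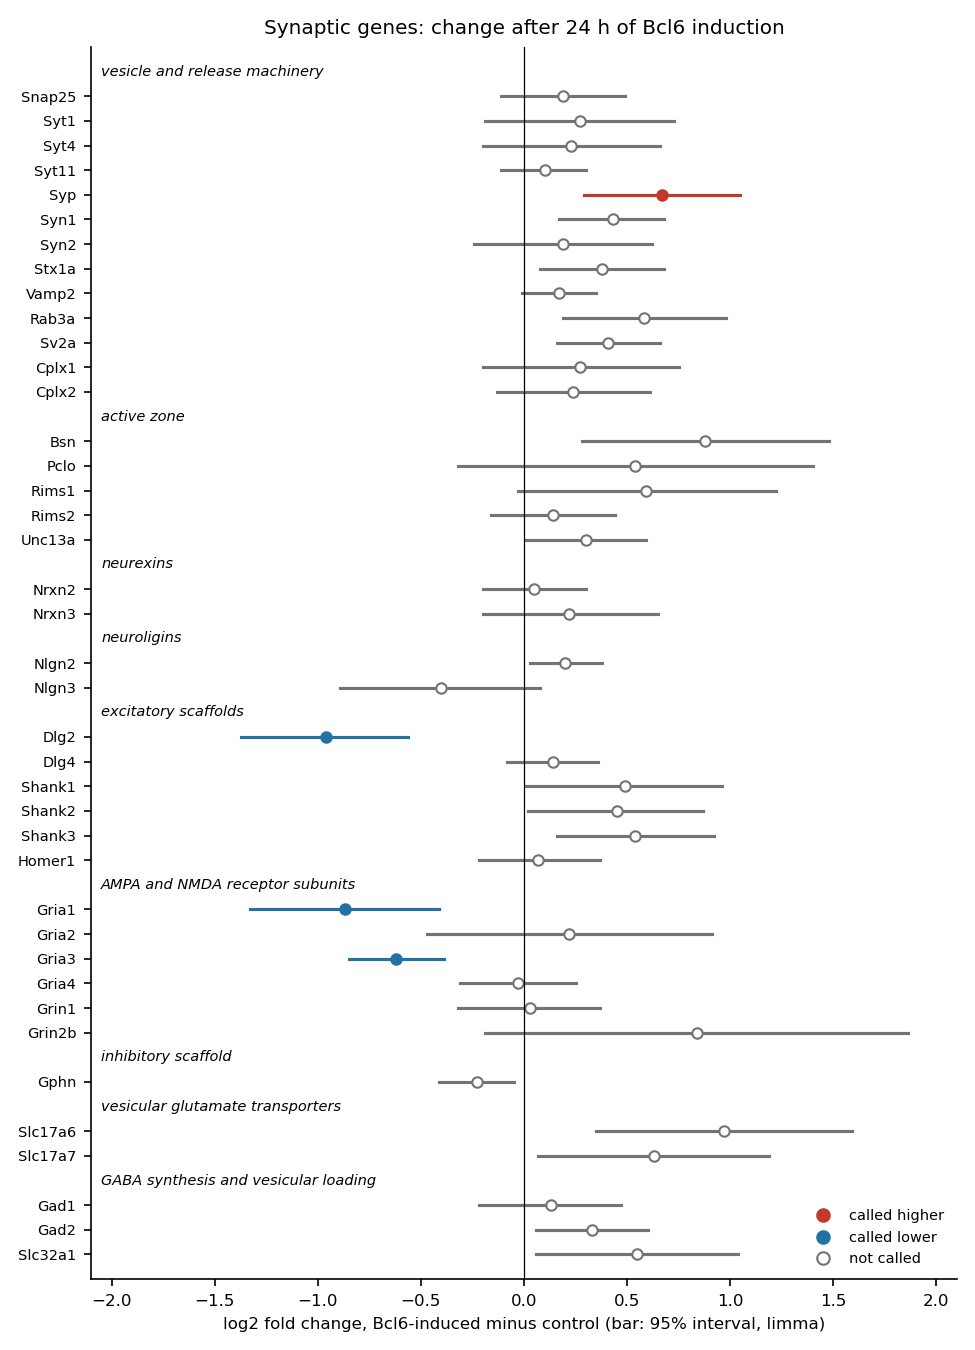
Log2 fold change of each of the 40 genes, Bcl6-induced minus control, grouped by role, with 95% intervals from limma (n = 4 libraries per group). The 20 presynaptic points of the first 3 groups all lie above 0, and 1 of them, Syp, was called higher; the 3 genes called lower, Dlg2, Gria1 and Gria3, are postsynaptic.

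The classes were counted apart. Of 20 presynaptic genes, 1 was called higher (5%, near the 4.55% of all genes tested) and none lower. Their median log2 fold change was 0.27, and all 20 values were above 0. With upper quartile scaling, after removal of the trend on length and GC, and without control 1 or Bcl6-induced library 1, 19 of the 20 were above 0. Of 15 postsynaptic genes, 3 were called lower (20%, against 2.26% of all genes tested) and none higher. Of their values, 9 were above 0 and 6 below it, with a median of 0.07. The postsynaptic median was -0.01 without control 1, with 7 values above 0 and 8 below. Both glutamate transporter genes and all 3 GABAergic genes had values above 0 and none was called. The difference between the classes was not tested.

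**Figure D2:**
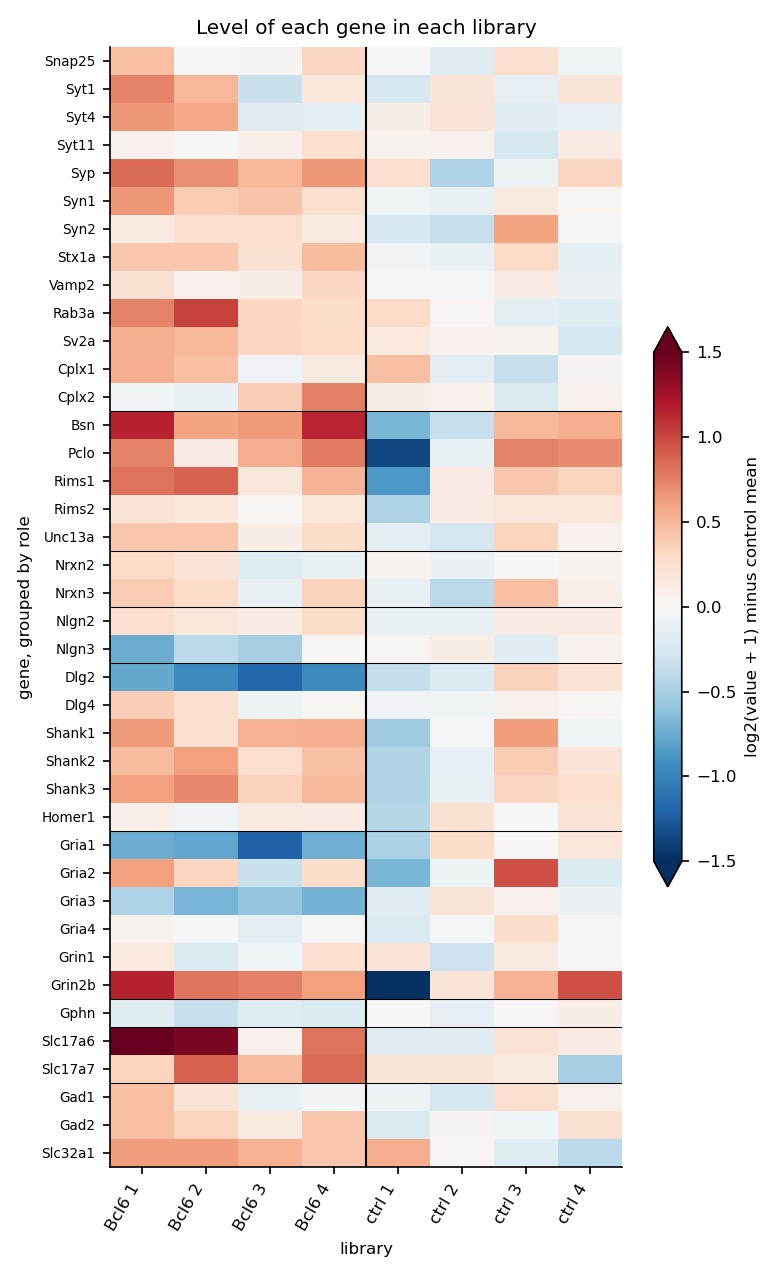
Level of each of the 40 genes in each library as log2(value + 1) minus the mean of the 4 controls, with genes in rows by role and libraries in columns (Bcl6 1 to 4, then ctrl 1 to 4). Control 1 shows the lowest cells for the genes with the longest transcripts, Grin2b at -1.68 and Pclo at -1.36, and Bcl6-induced libraries 1 and 2 the highest for Slc17a6, at 1.60 and 1.41.

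The vesicle and release machinery was the largest role group, with 13 genes, of which 1 rose and 12 did not pass the test. The summed level of the 13 was 331.6 to 378.2 CPM in Bcl6-induced libraries and 286.0 to 307.1 CPM in controls. Syp encodes synaptophysin, an abundant membrane protein of synaptic vesicles (chromosome X, 7638471 to 7653256, plus strand, mm10). It was at 12.9, 11.6, 10.2 and 11.3 CPM in Bcl6-induced libraries 1 to 4, against 8.52, 5.21, 6.82 and 8.92 CPM in controls 1 to 4. The lowest Bcl6-induced library was above the highest control, and the means were 11.5 ± 1.11 and 7.37 ± 1.70 CPM (SD, n = 4 each). Its log2 fold change was 0.67 ± 0.17 SE with a limma adjusted p of 0.044. The call was lost in 6 of 8 single leave-outs (highest adjusted p 0.15, without Bcl6-induced library 1) and was kept without control 1 (0.75, adjusted p = 0.024) and without control 4.

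Synaptic vesicle genes close to the threshold were Syn1 and Sv2a, named after their values were seen. Syn1, synapsin I, tethers vesicles to the cytoskeleton in the reserve pool. It stood at 19.7, 16.3, 16.9 and 14.8 CPM in Bcl6-induced libraries, against 12.0, 11.7, 13.8 and 12.8 CPM in controls, with no overlap (log2 fold change 0.43 ± 0.12 SE, limma adjusted p = 0.051). Its exons overlap those of Araf, on the other strand and at 89.0 CPM, and whether the authors counted by strand is not given in the sources used here. Sv2a, a vesicle glycoprotein that binds synaptotagmin, was at 24.9, 24.3, 21.4 and 21 CPM in Bcl6-induced libraries and 19.0, 17.8, 17.8 and 14.4 CPM in controls (0.41 ± 0.11 SE, limma adjusted p = 0.054). Without control 1 Sv2a passed the test (0.46, adjusted p = 0.025) and Syn1 did not (0.40, adjusted p = 0.053). Each of the 2 genes was called in only 1 of 8 single leave-outs (highest limma adjusted p 0.18 for both, without Bcl6-induced library 1).

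Rab3a, the GTPase that marks vesicles for exocytosis, ranged over 13.4 to 22.5 CPM in Bcl6-induced libraries and 9.77 to 13.6 CPM in controls, and was named after its values were seen. Its highest values, 18.5 and 22.5 CPM, were in Bcl6-induced libraries 1 and 2, against 13.8 and 13.4 CPM in libraries 3 and 4. The limma adjusted p was 0.077 (log2 fold change 0.58 ± 0.18 SE), and 0.033 without control 1 (0.68). Rab3a was called in only 1 of 8 single leave-outs (highest limma adjusted p 0.21, without Bcl6-induced library 1). Its exons overlap Mpv17l2 on the other strand, at 13.7 CPM.

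Syt11, a synaptotagmin that does not bind calcium, had the highest CPM of the group. It stood at 96.3, 91.6, 96.5 and 108.5 CPM in Bcl6-induced libraries, against 94.5, 96.2, 77.6 and 99.8 CPM in controls. The groups overlapped (log2 fold change 0.10 ± 0.09 SE, interval -0.11 to 0.30, limma adjusted p = 0.56). Per kilobase of its longest annotated transcript, Vamp2 was the most abundant of the 40, at 28.3 CPM per kb in Bcl6-induced and 25.1 in control cultures, followed by Syt11 at 19.6 and 18.3. In CPM, Vamp2, the vesicle SNARE synaptobrevin, ranged over 57.4 to 68.6 in Bcl6-induced libraries and 52.1 to 59.7 in controls.

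The plasma membrane SNARE genes, which pair with Vamp2 for fusion, did not pass the test. Snap25 ranged over 15.9 to 22.3 CPM in Bcl6-induced libraries and 14.5 to 19.2 CPM in controls, and Stx1a, syntaxin 1A, over 8.27 to 9.72 and 6.31 to 8.63 CPM (log2 fold change 0.38 ± 0.14 SE, limma adjusted p = 0.12). Syt1, the fast calcium sensor of release, stood at 18.3, 15.4, 8.72 and 12.2 CPM in Bcl6-induced libraries, against 9.27 to 12.4 CPM in controls. Syt4, another synaptotagmin, stood at 20.9, 19.9, 11.8 and 12.1 CPM, against 11.9 to 15.2 CPM. For both synaptotagmins, Bcl6-induced libraries 1 and 2 lay above every control and libraries 3 and 4 within or below the control range.

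The complexins, which clamp and promote SNARE-driven fusion, did not pass the test. Cplx2 stood at 44.4, 42.5, 58.8 and 76.6 CPM in Bcl6-induced libraries, against 48.6, 47.6, 39.2 and 47.5 CPM in controls, so that its high libraries were 3 and 4. Cplx1 ranged over 3.06 to 4.66 CPM in Bcl6-induced libraries and 2.51 to 4.36 CPM in controls. Syn2, synapsin II, ranged over 6.21 to 6.71 CPM in Bcl6-induced libraries and 4.46 to 8.53 CPM in controls.

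The 5 active-zone genes encode the proteins that dock and prime vesicles, and none passed the test. Their summed level was 99.6 to 122.5 CPM in Bcl6-induced libraries and 62.9 to 110.6 CPM in controls, with the lowest sum in control 1. Bsn encodes bassoon, a very large scaffold of the active zone. It stood at 20.0, 13.6, 14.0 and 19.9 CPM in Bcl6-induced libraries, against 5.56, 7.06, 12.6 and 13.2 CPM in controls. The groups did not overlap, the log2 fold change was 0.88 ± 0.27 SE and the limma adjusted p was 0.078 (0.65 and 0.091 without control 1). After removal of the trend on transcript length and GC content, Bsn passed the test (0.58, adjusted p = 0.016). Bsn was named after its values were seen.

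Pclo, piccolo, the partner of bassoon, stood at 18.3, 11.9, 16.1 and 18.9 CPM in Bcl6-induced libraries, against 4.26, 10.3, 18.4 and 18.0 CPM in controls. Its log2 fold change was 0.54 ± 0.39 SE with all libraries and 0.09 without control 1. Rims1, which links vesicles to calcium channels, ranged over 3.31 to 5.46 CPM in Bcl6-induced libraries and 1.60 to 3.91 CPM in controls (0.59 ± 0.28 SE, and 0.31 without control 1). Its relative Rims2 ranged over 33.4 to 37.9 and 23.8 to 36.8 CPM, and its control values other than the 23.8 CPM of control 1 lay at 35.6 to 36.8 CPM. The log2 fold change of Rims2 was 0.14 with all libraries and -0.01 without control 1.

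Unc13a, Munc13-1, which opens syntaxin for priming, had the highest mean CPM of the active-zone genes in Bcl6-induced cultures, 38.0 against 36.1 for Rims2, whereas Rims2 had the higher mean in controls, 33.2 against 31.2. Unc13a stood at 41.0, 41.1, 32.7 and 37.2 CPM in Bcl6-induced libraries, against 27.7, 25.8, 38.8 and 32.3 CPM in controls. The groups overlapped, with a log2 fold change of 0.30 ± 0.13 SE and a limma adjusted p of 0.20. Its exons overlap those of Colgalt1 on the other strand, at 107.5 CPM. Its promoter window is the one with both parts of RE1.

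Neurexins are presynaptic adhesion receptors and neuroligins their postsynaptic partners. Nrxn2 stood at 37.0, 34.5, 26.7 and 28.0 CPM in Bcl6-induced libraries, against 31.2, 28.4, 30.1 and 31.2 CPM in controls (log2 fold change 0.05 ± 0.11 SE, interval -0.20 to 0.30, limma adjusted p = 0.83). Nrxn3 ranged over 5.96 to 8.42 CPM in Bcl6-induced libraries and 4.86 to 8.83 CPM in controls. Nlgn2, the neuroligin of inhibitory synapses, stood at 97.2, 92.5, 89.1 and 99.9 CPM in Bcl6-induced libraries, against 76.5, 76.3, 88.9 and 88.7 CPM in controls. Its lowest Bcl6-induced library was just above its highest control, and its log2 fold change of 0.20 ± 0.08 SE had a limma adjusted p of 0.16. Nlgn3, which rested on 17 to 23 reads per library, ranged over 1.30 to 2.26 CPM in Bcl6-induced libraries and 1.96 to 2.35 CPM in controls (-0.40 ± 0.22 SE, limma adjusted p = 0.29).

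**Figure D3:**
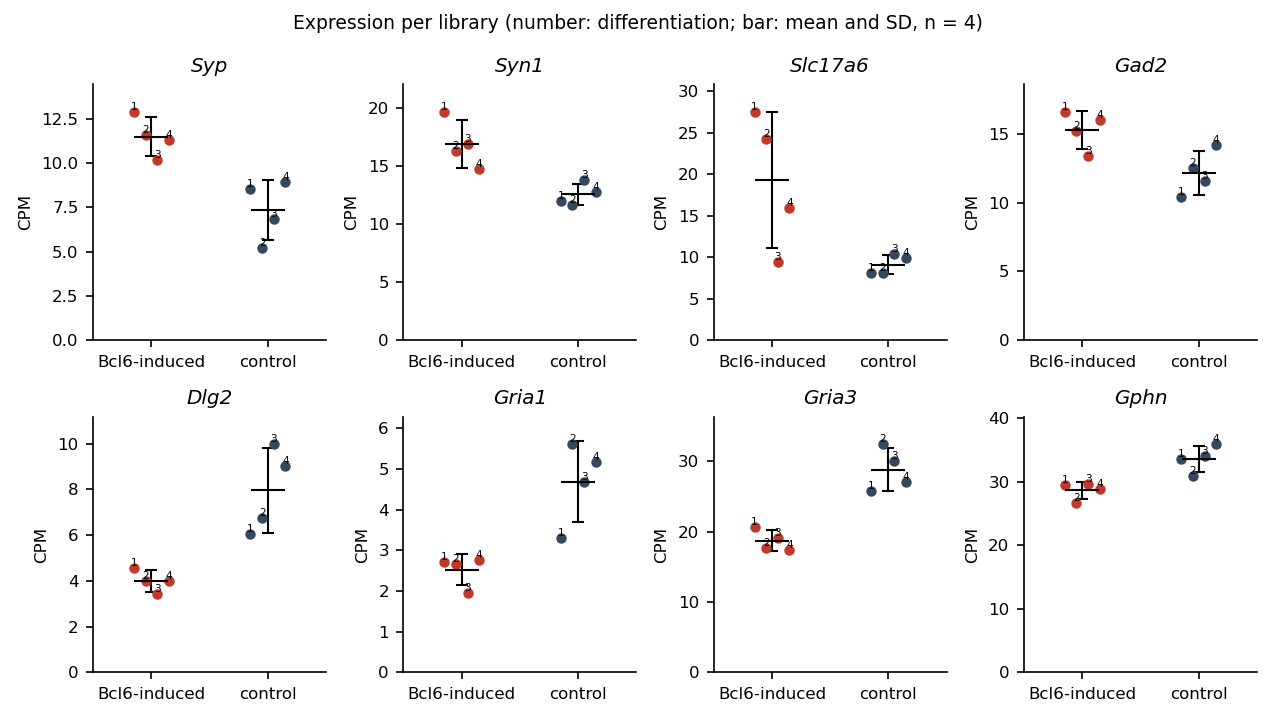
Expression in CPM of 8 of the 40 genes in each Bcl6-induced (left) and control (right) library; numbers are differentiations 1 to 4, and bars are the mean and SD (n = 4). Syp, Syn1, Dlg2, Gria1, Gria3 and Gphn show no overlap between groups, whereas Slc17a6 and Gad2 do, Slc17a6 through Bcl6-induced library 3 at 9.42 CPM.

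Among 6 scaffold genes of the excitatory postsynaptic density, Dlg2 fell and 5 did not pass the test. Dlg2 encodes PSD-93, a relative of PSD-95 that anchors NMDA receptors (chromosome 7, 90476672 to 92449247, plus strand, mm10). It stood at 4.56, 4.01, 3.41 and 4.01 CPM in Bcl6-induced libraries, against 6.06, 6.76, 9.98 and 9.02 CPM in controls. Every Bcl6-induced library was below every control, with means of 4.00 ± 0.47 and 7.96 ± 1.85 CPM (SD, n = 4 each). The log2 fold change was -0.96 ± 0.18 SE (limma adjusted p = 0.014), and Dlg2 was called lower in all 8 single leave-outs and all 10 other alternatives, with an adjusted p of at most 0.045. It rested on 38 to 97 reads per library.

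Dlg4, PSD-95 itself, had the highest CPM of these scaffold genes, and its groups overlapped. It stood at 70.7, 64.6, 51.7 and 55.6 CPM in Bcl6-induced libraries, against 53.1, 52.3, 57.3 and 55.7 CPM in controls (log2 fold change 0.14 ± 0.10 SE, limma adjusted p = 0.42). The 3 Shank genes, which encode the deeper layer of the density, had log2 fold changes of 0.49, 0.45 and 0.54 for Shank1, Shank2 and Shank3, and none passed the test. Shank3, named after its values were seen, ranged over 12.2 to 15.9 CPM in Bcl6-induced libraries and 7.01 to 11.9 CPM in controls, without overlap (limma adjusted p = 0.086, and 0.096 without control 1). Without control 1 the log2 fold changes of the 3 genes were 0.31, 0.30 and 0.39. Shank1 ranged over 7.46 to 9.82 CPM in Bcl6-induced libraries and 4.36 to 9.78 CPM in controls, and Shank2 over 5.06 to 6.56 and 3.11 to 5.57 CPM. Homer1, which ties Shank to metabotropic receptors, ranged over 35.6 to 40.6 CPM in Bcl6-induced libraries and 27.4 to 43.2 CPM in controls (0.07 ± 0.13 SE, limma adjusted p = 0.79).

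Of 6 ionotropic glutamate receptor genes, Gria1 and Gria3 fell and 4 did not pass the test. Gria3 encodes an AMPA receptor subunit, GluA3 (chromosome X, 41400854 to 41678601, plus strand, mm10). It stood at 20.7, 17.6, 19.1 and 17.4 CPM in Bcl6-induced libraries, against 25.7, 32.4, 30.0 and 27.0 CPM in controls. The highest Bcl6-induced library was below the lowest control, and the means were 18.7 ± 1.54 and 28.8 ± 3.00 CPM (SD, n = 4 each). The log2 fold change was -0.62 ± 0.10 SE with a limma adjusted p of 0.0081, the smallest of the 40. The call was kept in all 8 single leave-outs and all 10 other alternatives, with an adjusted p of at most 0.035.

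Gria1 encodes GluA1, the subunit best known for activity-dependent insertion at synapses (chromosome 11, 57011387 to 57330244, plus strand, mm10). It stood at 2.71, 2.66, 1.95 and 2.76 CPM in Bcl6-induced libraries, against 3.31, 5.61, 4.67 and 5.16 CPM in controls. The groups did not overlap, the log2 fold change was -0.87 ± 0.21 SE and the limma adjusted p was 0.033. Gria1 rested on 22 to 53 reads per library and lost its call in 6 of 8 single leave-outs (highest adjusted p 0.11, without control 2). It was kept without control 1 (-1.03, adjusted p = 0.0097) and without Bcl6-induced library 4.

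Gria2, the subunit that makes AMPA receptors impermeable to calcium, ranged over 5.76 to 11.1 CPM in Bcl6-induced libraries and 4.46 to 14.2 CPM in controls. Its log2 fold change was 0.22 ± 0.31 SE, with an interval of -0.47 to 0.91 (limma adjusted p = 0.72), and -0.01 without control 1. Gria4 ranged over 9.07 to 10.5 CPM in Bcl6-induced libraries and 8.72 to 12.1 CPM in controls (-0.03 ± 0.13 SE, interval -0.31 to 0.25, limma adjusted p = 0.93). Among the 4 AMPA subunit genes on the scale of CPM per kb, Gria3 held 53.7 ± 3.5% in Bcl6-induced and 61.6 ± 3.9% in control libraries. Gria4 held 27.2 ± 1.2% and 20.8 ± 1.4%, Gria1 6.8 ± 0.9% and 9.4 ± 1.5%, and Gria2 12.3 ± 2.4% and 8.3 ± 3.5% (SD, n = 4 each). The share of Gria4 was 25.8% to 28.3% in Bcl6-induced libraries and 18.8% to 21.9% in controls, without overlap, although its own CPM did not pass the test. Shares sum to 100%, so a rise in 1 share goes with a fall in others, and they were not tested.

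**Figure D4:**
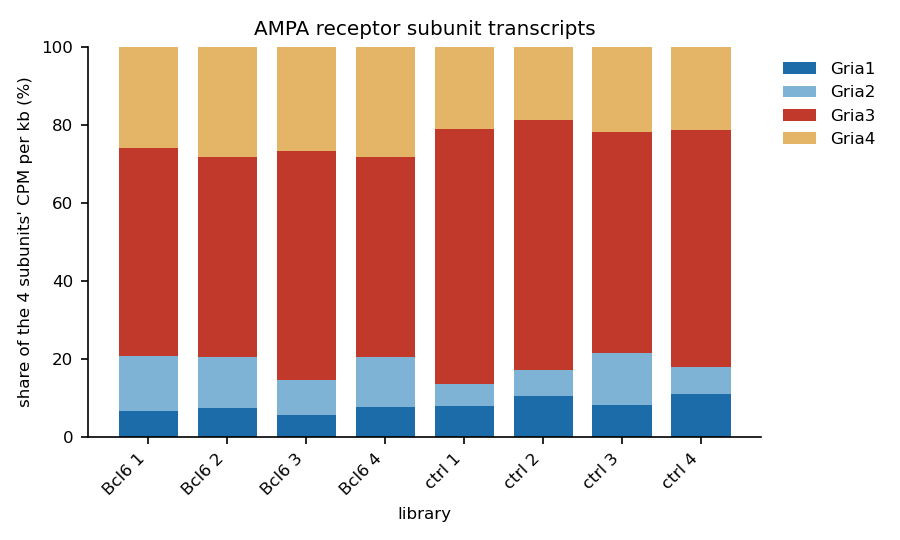
Share of the 4 AMPA receptor subunit genes in their summed CPM per kb (in %, stacked bars), by library, Bcl6-induced libraries left and controls right. Gria3 holds the largest share in every library, 51.2% or more, and the Gria4 share is larger in each Bcl6-induced library (25.8% to 28.3%) than in any control (18.8% to 21.9%).

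The NMDA receptor genes did not pass the test. Grin1, the obligatory subunit, ranged over 6.46 to 8.82 CPM in Bcl6-induced libraries and 6.01 to 8.52 CPM in controls (log2 fold change 0.03 ± 0.16 SE, interval -0.32 to 0.37, limma adjusted p = 0.94). Grin2b, the subunit of the developing cortex, stood at 4.26, 3.31, 3.21 and 2.91 CPM in Bcl6-induced libraries, against 0.55, 2.15, 2.71 and 3.71 CPM in controls. Control 1 held 5 reads of Grin2b, and the log2 fold change was 0.84 ± 0.47 SE with it and 0.28 without it. Gphn encodes gephyrin, the scaffold of inhibitory synapses. It stood at 29.5, 26.7, 29.6 and 28.8 CPM in Bcl6-induced libraries, against 33.6, 30.9, 34.0 and 35.9 CPM in controls. Its groups did not overlap, and it did not pass the test (-0.23 ± 0.08 SE, limma adjusted p = 0.12).

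The vesicular glutamate transporters define glutamatergic neurons, and neither gene passed the test. Slc17a6, VGLUT2, stood at 27.5, 24.2, 9.42 and 15.9 CPM in Bcl6-induced libraries, against 8.07, 8.11, 10.4 and 9.87 CPM in controls. Bcl6-induced libraries 1, 2 and 4 were above every control, and library 3 was within the control range. The means were 19.2 ± 8.16 and 9.11 ± 1.20 CPM (SD, n = 4 each), and the log2 fold change was 0.97 ± 0.28 SE (interval 0.35 to 1.59, limma adjusted p = 0.064). Without Bcl6-induced library 3 it passed the test (1.27, adjusted p = 0.013), and without control 1 it did not (0.91, adjusted p = 0.077). Slc17a6 was called in only 1 of 8 single leave-outs (highest limma adjusted p 0.19, without Bcl6-induced library 1). Slc17a7, VGLUT1, the main transporter of mature cortex, stood at 1.55, 2.30, 1.70 and 2.26 CPM in Bcl6-induced libraries, against 1.40, 1.40, 1.35 and 0.85 CPM in controls. Its groups did not overlap, but the libraries held 8 to 25 reads of it (0.63 ± 0.25 SE, limma adjusted p = 0.16).

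Among the 3 genes that define GABA neurons none passed the test. Gad2, a glutamate decarboxylase that makes GABA near vesicles, stood at 16.6, 15.2, 13.4 and 16 CPM in Bcl6-induced libraries, against 10.4, 12.5, 11.6 and 14.2 CPM in controls (log2 fold change 0.33 ± 0.12 SE, interval 0.06 to 0.60, limma adjusted p = 0.13). Gad1, the other decarboxylase, stood at 13.1, 11.1, 8.87 and 9.32 CPM in Bcl6-induced libraries, against 9.07, 8.11, 11.3 and 10.1 CPM in controls, with overlapping groups (0.13 ± 0.16 SE, interval -0.22 to 0.47, limma adjusted p = 0.66). Slc32a1, the vesicular GABA transporter VGAT, stood at 3.31, 3.31, 3.06 and 2.81 CPM in Bcl6-induced libraries, against 3.11, 2.15, 1.86 and 1.60 CPM in controls. Its highest control, control 1, lay within the Bcl6-induced range, and the log2 fold change was 0.55 ± 0.22 SE (limma adjusted p = 0.17), or 0.73 without that library (adjusted p = 0.042). Slc32a1 was called in only 1 of 8 single leave-outs (highest limma adjusted p 0.34, without Bcl6-induced library 1). Per kilobase of transcript, Slc17a6 had a mean level of 4.65 CPM per kb in Bcl6-induced and 2.20 in control cultures. Gad1 had 2.94 and 2.68 CPM per kb, and Gad2 had 2.66 and 2.12. Slc17a6 was thus above both decarboxylase genes in Bcl6-induced cultures, whereas in controls it was below Gad1.

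Control 1 was compared with the other controls by transcript length over the same genes. The 40 genes had a median longest transcript of 5113 bases, against 3336 bases over all genes with a length. Over the 40 genes the Spearman correlation between transcript length and the deviation of control 1 from controls 2 to 4 was -0.69. In the 6 genes with a transcript over 9000 bases, the median deviation was -0.92 on the log2 scale, against -0.07 in the other 34. Without control 1, 4 of the 40 genes were called higher (Syp, Rab3a, Sv2a and Slc32a1) and the same 3 genes were called lower as with all libraries, Dlg2, Gria1 and Gria3. Of all 14954 genes, 1146 were then called higher, against 681 with all libraries, and 551 lower, against 338.

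**Figure D5:**
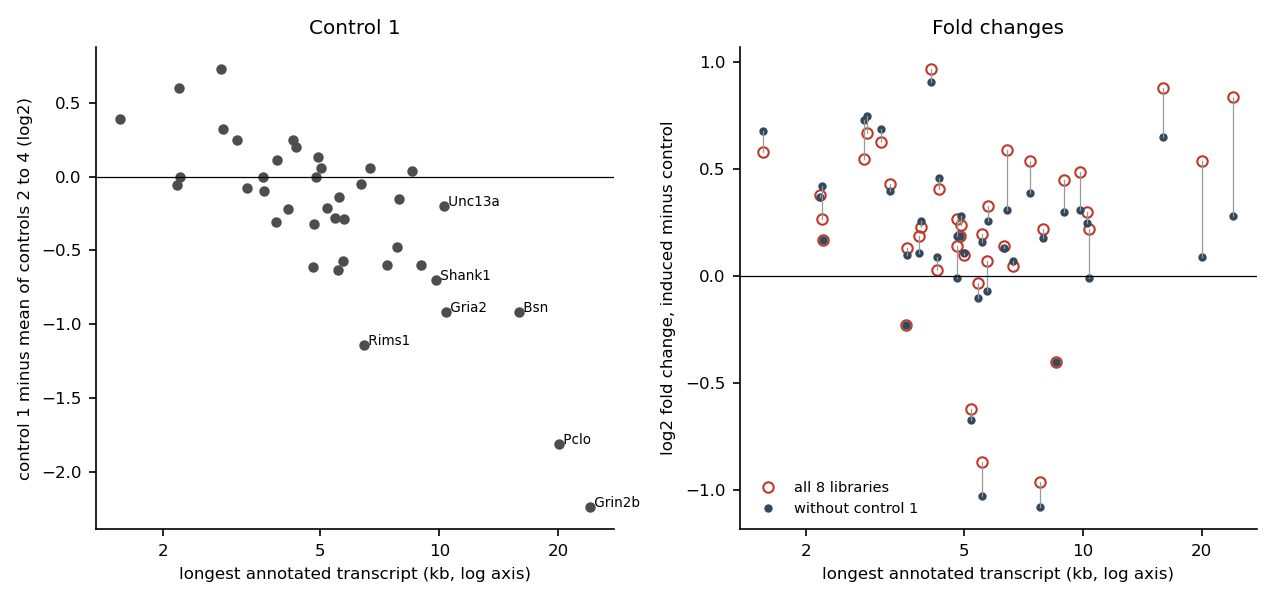
Left, deviation of control 1 from the mean of controls 2 to 4 (log2) against the longest annotated transcript (kb, log axis) for the 40 genes; right, log2 fold change, Bcl6-induced minus control, with all 8 libraries (open) and without control 1 (filled). The deviation is -2.24 for Grin2b, the longest transcript, and the fold changes of Pclo and Grin2b are 0.09 and 0.28 without control 1, against 0.54 and 0.84 with all libraries.

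Other synaptic genes were counted on 2 lists of 121 genes that hold none of the 40, and 105 were in the table. In Bcl6-induced cultures 10 were higher and 2 lower, or 11.4% of the 105, against 6.81% of all genes tested. Of 54 other presynaptic genes, 8 rose (14.8%, against 4.55% of all genes tested) and 1 fell (1.85%, against 2.26%). Syt13 and Napb were among those with the smallest p. Syt13, an atypical synaptotagmin, stood at 24.5, 22.0, 22.4 and 23.7 CPM in Bcl6-induced libraries, against 14.0, 15.8, 16.1 and 14.1 CPM in controls (log2 fold change 0.63 ± 0.09 SE, limma adjusted p = 0.0044). Syt13 kept its call in all 8 single leave-outs.

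Napb, a SNAP protein that helps take SNARE complexes apart, averaged 20.7 ± 2.19 CPM in Bcl6-induced and 14.5 ± 0.78 CPM in control cultures (SD, n = 4 each; log2 fold change 0.50 ± 0.10 SE, limma adjusted p = 0.020). It lost its call in 3 of 8 single leave-outs (highest adjusted p 0.080, without Bcl6-induced library 1). A further 5 that rose, named after their values were seen, were the active-zone and liprin genes Erc1 and Ppfia1, the endocytic gene Amph, the vesicle priming gene Cadps and the glutamate transporter gene Slc17a8, VGLUT3. Each of these 5 lost its call in at least 4 single leave-outs. Sncb, beta-synuclein, fell, at 4.60 ± 0.86 CPM in Bcl6-induced and 7.76 ± 1.20 CPM in control cultures (-0.75 ± 0.17 SE, limma adjusted p = 0.029, and up to 0.10 without Bcl6-induced library 1).

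Of 51 other postsynaptic genes, 2 rose and 1 fell, or 5.88% called, a share near the 6.81% of all genes tested. Grm2, a metabotropic glutamate receptor that lowers cyclic AMP, stood at 16.3, 16.8, 13 and 14.4 CPM in Bcl6-induced libraries, against 5.66, 4.76, 5.67 and 7.57 CPM in controls. Its log2 fold change of 1.36 ± 0.16 SE had a limma adjusted p of 0.0016, and it kept its call in all 8 single leave-outs. Kalrn, a guanine nucleotide exchange factor of dendritic spines, averaged 47.1 ± 6.56 CPM in Bcl6-induced and 30.4 ± 6.12 CPM in control cultures (0.64 ± 0.15 SE, limma adjusted p = 0.032). Slitrk5, a synaptic adhesion protein, fell, at 9.52 ± 1.13 and 13.5 ± 0.60 CPM (-0.51 ± 0.12 SE, limma adjusted p = 0.029). Kalrn and Slitrk5 lost their calls in 5 and 4 of 8 single leave-outs, with adjusted p values of up to 0.086 (without Bcl6-induced library 1) and 0.095 (without Bcl6-induced library 2).

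Markers of other cell states moved in the same libraries. Of 15 pan-neuronal genes of the cytoskeleton and RNA binding, 7 were higher and none lower (46.7% higher, against 4.55% of all genes tested), and their summed level was 1810.1 to 2174.3 CPM in Bcl6-induced libraries and 1210.5 to 1452.4 CPM in controls. Tubb3, the neuronal tubulin, averaged 327.1 ± 42.1 CPM in Bcl6-induced and 169.7 ± 28.9 CPM in control cultures (log2 fold change 0.96 ± 0.13 SE, limma adjusted p = 0.0031). The median log2 fold change of the 15 was 0.60, against 0.24 for the 40 synaptic genes. Of 13 radial glia genes in the table, 7 were lower and none higher (53.8% lower, against 2.26% of all genes tested), with a summed level of 1213.2 to 1594.3 CPM in Bcl6-induced libraries and 1728.9 to 2195.2 CPM in controls. The 7 were Hes5, Fabp7, Slc1a3, Prom1, Nes, Sox1 and Sox9. All of these but Slc1a3 were lowest in Bcl6-induced libraries 1 and 2, those in which Slc17a6, Rab3a, Syt1 and Syt4 were highest. The synaptic genes in that comparison were picked after their values were seen, and not all genes followed them. Cplx2 and the pan-neuronal genes Tubb3, Elavl3 and Elavl4 were highest in Bcl6-induced libraries 3 and 4. The pan-neuronal list was split. Nefl, Nefm, Ina, Mapt, Gap43, Stmn2, Stmn3 and Ank3 were highest in Bcl6-induced libraries 1 and 2, and the rest showed neither order. Nefm stood at 176.6, 170.3, 99.9 and 119.4 CPM in Bcl6-induced libraries 1 to 4. Tubb3 stood at 291.1, 299.0, 334.6 and 383.5 CPM in Bcl6-induced libraries 1 to 4. Fabp7, the lipid-binding protein of radial glia, stood at 9.47, 14.0, 76.6 and 87.4 CPM in Bcl6-induced libraries 1 to 4, against 145.7 to 213.8 CPM in controls. Hes5, a Notch target, stood at 0.20, 0.30, 6.06 and 6.12 CPM, against 13.8 to 23.0 CPM, and the filament gene Nes at 153.3, 152.1, 217.1 and 234.5 CPM, against 265.6 to 307.5 CPM. The part of neuronal and progenitor markers in the synaptic values was not tested.

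Transcription factors of the 2 transmitter lineages were counted in the same way. Of 10 glutamatergic lineage genes, a list that also holds Slc17a6, 8 were in the table, and Neurod2 and Neurod6 were not. Of these 8, 3 were higher (Eomes, Tbr1 and Neurod1, or 37.5%, against 4.55% of all genes tested) and none lower. Tbr1 rested on 4 to 45 reads per library. The summed level of the 8 was 97.3 to 137.7 CPM in Bcl6-induced libraries and 63.7 to 78.1 CPM in controls. Of 10 GABAergic lineage genes none passed the test, and the summed level was 52.0 to 99.6 CPM in Bcl6-induced libraries and 68.3 to 85.4 CPM in controls. Of 9 genes of peripheral and neuroendocrine neurons, which also express synaptic vesicle genes, 2 were higher (Pou4f1 and Chgb; 22.2%, against 4.55% of all genes), and the summed level was 177.3 to 233.7 CPM in Bcl6-induced libraries and 110.5 to 163.2 CPM in controls. Among the 5 astrocyte and oligodendrocyte genes tested, 1 was higher, Mbp (20%, against 4.55% of all genes; 141.3 to 157.0 CPM in sum in Bcl6-induced libraries and 107.0 to 125.5 CPM in controls). Of 10 pluripotency genes 5 were higher (Nanog, Zfp42, Esrrb, Klf4 and Dppa4; 50%, against 4.55% of all genes) and 1 lower (Tdgf1; 10%, against 2.26%). Their summed level was 1977.2 to 2333.8 CPM in Bcl6-induced libraries and 2092.0 to 2327.5 CPM in controls. The part of these cells in the synaptic values was not tested.

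Of 8 genes of the REST repressor complex none passed the test, and the summed level was 1535.4 to 1597.1 CPM in Bcl6-induced libraries and 1513.1 to 1548.4 CPM in controls. Rest stood at 279.5, 262.2, 259.9 and 247.1 CPM in Bcl6-induced libraries, against 193.0, 251.4, 269.9 and 245.7 CPM in controls. The groups overlapped, and the log2 fold change was 0.14 ± 0.10 SE, with an interval of -0.08 to 0.36 (limma adjusted p = 0.42). Its lowest value was that of control 1.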

How the data were processed

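The authors deposited 1 table of 14954 genes for the 8 libraries, whose decimal commas had become column breaks (36 cells per line under 24 header names), and every line was rejoined from its own CPM values. The submitters' processing notes name STAR 2.5.3a, HTSeq 0.9.1, edgeR 3.20.1 and mm10; whether strand was used in counting is not given in the sources used here. Expression in the deposited table is a score: integers with library sums of 19.93 to 19.96 M, which proved to be read numbers multiplied by a library factor and rounded up (at least 99.62% of genes sat on a fixed step in each library, against at most 79.30% for a shifted step, where a match meant rounding up to exactly the deposited number). The planned count tests were therefore not run. CPM is the deposited value over its library's total, and reads are the value over the step.

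Bcl6-induced and control libraries (4 each) were compared on log2(value + 1) with limma 3.58.1 (R 4.3.3), using a variance trend and no covariate, adjusted over all genes by Benjamini-Hochberg. The pseudocount of 1 makes fold changes of low genes understated. No filter was applied; the lowest mean in the table was 15.1 scaled reads. The labels do not say how independent the numbered cultures were, so each p-value reflects how these libraries vary, which may be technical. Same-numbered libraries of the 2 groups were checked and not treated as pairs. The 40 genes and all lists were chosen with earlier results of these data known. Named were every called gene, every glutamatergic and GABAergic gene, the highest gene of each role, and on the other lists up to 3 called genes per direction; others are marked as chosen after their values were seen, and 1 called gene of the other presynaptic list is not reported here. Coordinates and transcript lengths are from GENCODE M21 (GRCm38, the same build as mm10). Intervals are 95% and come from limma.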

Additional observations from a re-analysis of the deposited data

Results flagged for a closer look

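Of 94 groups of 4 libraries checked, 4 had 1 library far from the other 3 by Dixon's test, and chance flags about 5% of such groups. Gria1 stood at 1.95 CPM in Bcl6-induced library 3, against 2.66 to 2.76 CPM in the other Bcl6-induced libraries. Rims2 stood at 23.8 CPM in control 1, against 35.6 to 36.8 CPM in the other controls. Cplx2 stood at 39.2 CPM in control 3, against 47.5 to 48.6 CPM, and Slc17a7 at 0.85 CPM in control 4, against 1.35 to 1.40 CPM. None of the 4 libraries ended or made a call on these genes, except that Gria1 was not called without Bcl6-induced library 3 (limma adjusted p = 0.078).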

How the results depend on the processing

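Besides the main test, 10 alternatives with all libraries and 8 single leave-outs were run; 2 count tests were not run, since the values are not raw counts. Over 49 named genes, 801 of 875 alternative values kept direction and side of the threshold, 24 newly passed it, 33 no longer did, and 17 changed sign, none of them called. Synaptic genes called higher numbered 0 with upper quartile scaling and without the variance trend, 3 with a minimum mean of 100 scaled reads (33 of the 40 tested), 8 with array weights and 4 after removal of the trend on length and GC, against 1 in the main test; those called lower numbered 2 to 4 throughout. All genes called numbered 2507 with array weights and 1764 after removal of the trend on length and GC, against 1019, and other synaptic genes called 21 and 20, against 12. Leaving out 1 library at a time gave 0 to 4 synaptic genes higher (0 without Bcl6-induced library 1 or 2 or control 2, 2 without control 4 and 4 without control 1) and 2 to 3 lower. All genes called then numbered 308 to 1697: 308, 350 and 649 without Bcl6-induced libraries 1, 2 and 3, 359 without control 2 and 1697 without control 1 were the counts over 1.5 times apart from 1019. Other synaptic genes called numbered 3 to 16, with 3 without Bcl6-induced library 1 or 2, 4 without control 2 and 6 without control 3 or 4. Median-of-ratios scaling moved the split of all genes called to 536 higher and 424 lower, and upper quartile scaling to 501 and 474, against 681 and 338.

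Deviations from the group means had correlations of 0.030, 0.011, -0.028 and 0.374 in same-numbered libraries, and of -0.317 to 0.321 in different-numbered ones. The numbers were not taken to pair the samples. These deviations also followed transcript length, so their correlations cannot show that the cultures were unpaired. With a replicate block, 2 synaptic genes were higher (Syp and Rab3a), 3 lower, and 827 genes called in all; the block after removal of the trend on length and GC gave 4 and 3, 1826 in all, and 21 other synaptic genes.

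Sign changes were all in values near 0, and their cause was not tested. Grin1 was at -0.01 with median-of-ratios scaling, -0.02 with upper quartile scaling, -0.11 after removal of the trend on length and GC, with or without the block, and between -0.07 and 0.11 over the single leave-outs (below 0 without Bcl6-induced library 1 or 4 or control 2). Nrxn2 was at -0.00 with upper quartile scaling, -0.16 after removal of that trend, with or without the block, and between -0.03 and 0.13 over the single leave-outs (below 0 without Bcl6-induced library 1). Homer1 was at -0.08 with array weights and between -0.07 and 0.15 over the single leave-outs. Rims2 lay between -0.01 and 0.20 and Gria2 between -0.01 and 0.54 over the single leave-outs. The values below 0 of Homer1, Rims2 and Gria2 were those without control 1. Gria4 lay between -0.10 and 0.06, and above 0 without Bcl6-induced library 3 or control 3. Depth limits genes with few reads, such as Slc17a7 with 8 to 25 per library.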
